A study of Mus musculus with 20 samples.

Results

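This account follows 9 genes of eicosanoid synthesis, chosen by symbol, among the 24552 genes measured in the corneal epithelium of ageing mice: the lipoxygenases Alox12, Alox12e, Alox12b, Aloxe3 and Alox15, the cyclooxygenases Ptgs1 and Ptgs2, and the prostaglandin E synthases Ptges and Ptges3. All 9 were in the table. The values come from 20 RNA-seq libraries of female wild-type naïve C57BL/6J mice, 5 at each of 4 ages. The 2-month or young mice were 2 to 3 months old, the 12-month mice 12 to 13, the 18-month mice 18 to 19 and the 24-month mice 24 to 25. The 15 older libraries together are called aged. Each library held the debrided epithelium of both corneas of 1 animal, and no group received a treatment or carried an engineered allele. The mice were bought from a commercial breeder, aged in-house or obtained from a national ageing institute, and the labels do not give the source of each library, so age and source cannot be told apart.

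Lipoxygenases and cyclooxygenases act on arachidonic acid and related fatty acids that phospholipases release from membranes. Lipoxygenases add oxygen to the chain and give hydroperoxy and hydroxy fatty acids and, through further steps, leukotrienes and lipoxins. Cyclooxygenases give prostaglandin H, which terminal synthases turn into prostaglandin E and the other prostanoids. In the cornea these products are known for their roles in wound repair and inflammation, and Alox15 is known as a resident epithelial enzyme there. Alox12b and Aloxe3 are known mainly from the skin, where they act in turn on lipids of the water barrier.

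The 5 lipoxygenases lie within 2 clusters of mouse chromosome 11 (build GRCm38). Alox15 (gene 11687) spans chr11:70344152-70352031 on the minus strand, beside Alox12e (gene 11685, chr11:70315610-70322628, minus) and Alox12 (gene 11684, chr11:70241457-70255353, minus). Aloxe3 (gene 23801, chr11:69125896-69149115) and Alox12b (gene 11686, chr11:69156989-69169792) lie on the plus strand. Because the members are copies of one family, the coding stretch around a pair of histidines that bind the catalytic iron is shown for each, read from the GENCODE transcripts 5′ to 3′, with the codons of the histidines in capitals.
Alox15: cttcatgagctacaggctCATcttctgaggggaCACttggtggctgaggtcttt
Alox12e: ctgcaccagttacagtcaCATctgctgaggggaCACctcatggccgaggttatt
Alox12: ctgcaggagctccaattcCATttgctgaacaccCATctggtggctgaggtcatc
Alox12b: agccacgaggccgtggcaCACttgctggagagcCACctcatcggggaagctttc
Aloxe3: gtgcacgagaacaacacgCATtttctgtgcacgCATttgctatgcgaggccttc

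In each of the 5 genes, 4 codons separate the histidine codons. Of the 54 bases shown, Alox12e shared 41 with Alox15, Alox12 shared 36, Aloxe3 30 and Alox12b 27. Over the whole translated coding sequence, Alox15 was 59.5% identical to Alox12e and 58.3% identical to Alox12, and Alox12b was 54.2% identical to Aloxe3. The family is still separable by sequence at the read length used: 0 stretches of 75 bases were shared between the transcripts of any pair of lipoxygenases, or between Ptgs1 and Ptgs2, which were 63.9% identical. Ptges3 (gene 56351, chr10:128058954-128077272) differed in this respect, since 409 of its 2215 windows of 75 bases (18.5%) also occurred in the pseudogenes Gm11893 and Ptges3-ps. This is a share of windows and not of reads. Where the windows lie along the transcript was not examined, so the share of Ptges3 reads affected is not known. Ptgs1 (gene 19224, chr2:36230426-36252272) overlaps the antisense gene Gm43621, and Ptges (gene 64292, chr2:30889471-30929863) overlaps the pseudogene Gm13400 on its own strand. The strand setting used for counting is not given in the sources used here.

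The libraries held 6699383 to 10762360 counted reads, with a median of 8731333. Krt12, the keratin that defines corneal epithelium, had at least 159755 reads in every library, and all 10 of the corneal epithelial markers examined were detected. Conjunctival and stromal markers were also present. Values are normalized counts, that is reads divided by the size factor of the library, and a gene was tested when its mean over the 20 libraries was at least 10. This left 6 members with a test (Alox12, Alox12e, Alox15, Ptgs1, Ptges and Ptges3) and 3 too low for one (Alox12b, Aloxe3 and Ptgs2). A call is a limma adjusted p of 0.05 or less, over all 11288 genes tested, with a change of at least 1.2-fold.

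Alox15 was the only member called in any comparison, and only where the 15 aged libraries were set against the 5 young ones. Its normalized count averaged 193.2 ± 94.84 (SD, n = 5) at 2 months and 72.80 ± 38.37 (SD, n = 15) in the aged libraries, a log2 fold change of -1.45 (SE 0.360, 95% confidence interval -2.19 to -0.72), or 2.74-fold lower, with a limma adjusted p of 0.0379. The call is close to the threshold, and dropping a single library from the fit removed it in 11 of 20 cases, with adjusted p-values from 0.0208 to 0.191, the highest without young replicate 2. In that comparison 1 of the 6 tested members was called, against 1.01% of all genes tested.

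The 2-month libraries had 95.37, 285.5, 303.2, 128.2 and 153.7 normalized counts of Alox15. The 12-month libraries had 123.2, 40.78, 42.86, 37.08 and 38.23. The 18-month libraries had 123.2, 21.11, 67.49, 116.5 and 78.33, and the 24-month libraries had 102.4, 75.62, 57.70, 33.07 and 134.6. Replicates 2 and 3 of the young group stood highest of all 20 libraries, and the other young libraries lay within or just above the aged range. Of the 15 aged libraries, 10 were below the lowest young library and none was above the highest, so the groups overlapped. These values rest on 18 to 381 reads per library, and they can reflect fewer cells of a type or less RNA per cell, which cannot be told apart in bulk tissue.

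**Figure D1:**
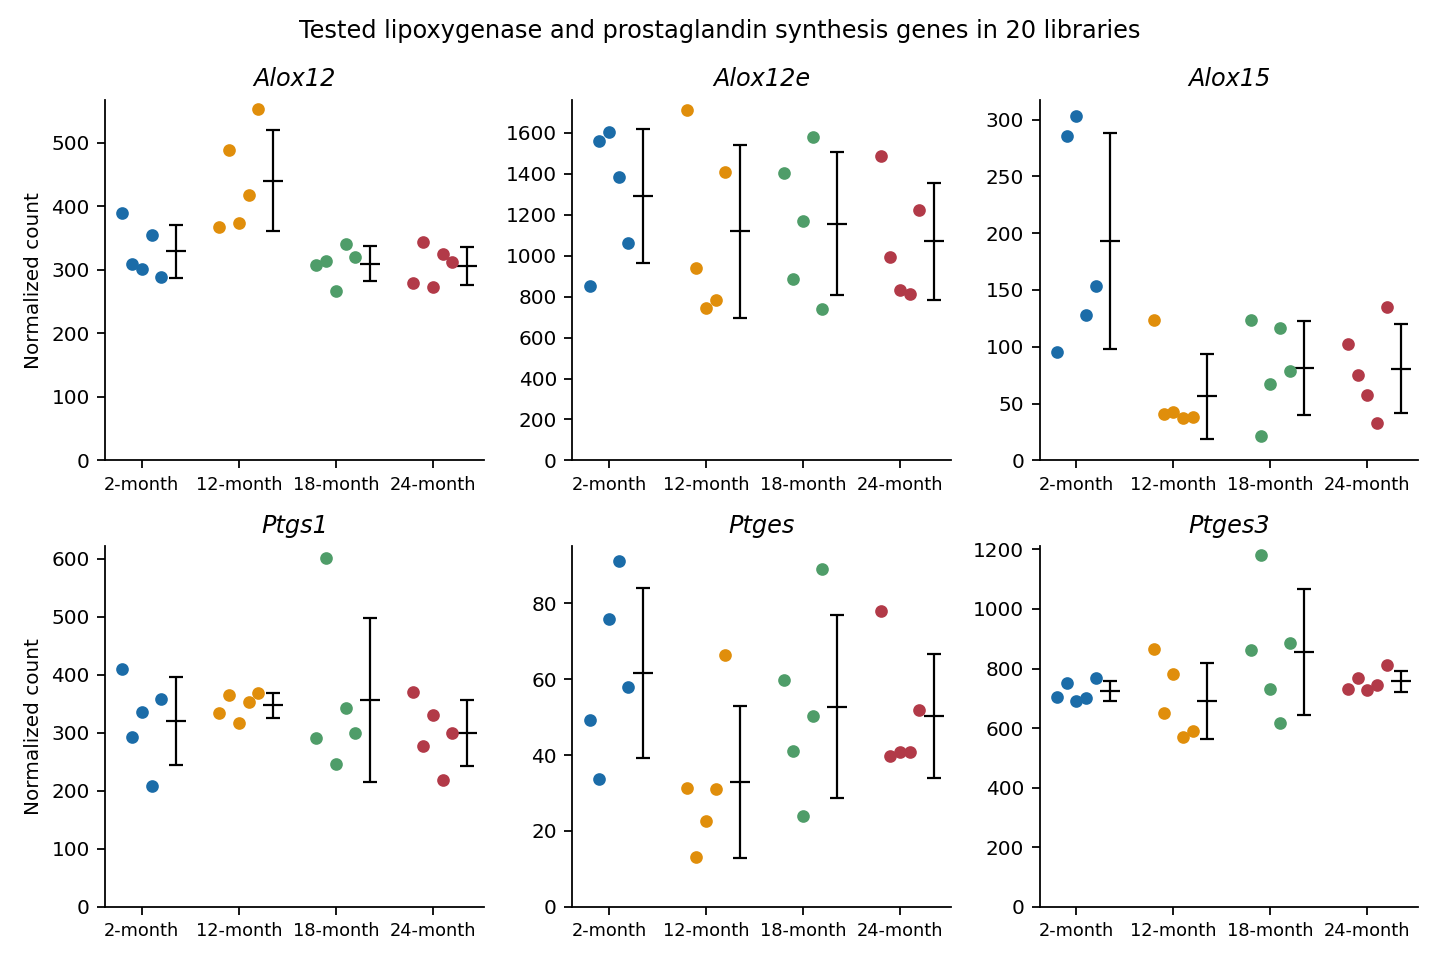
Normalized count (vertical axis, linear, from 0) of each tested member in each library, by age. Points are libraries in order of replicate number and the bar beside them is the mean with its SD (n = 5); Alox15 is highest in 2 young libraries, at 285.5 and 303.2, and Alox12 at 12 months lies wholly above its values at 18 and 24 months.

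Each older age was also compared with the young group on its own. Alox15 was 3.46-fold lower at 12 months (log2 fold change -1.79, 95% confidence interval -2.69 to -0.89), with a limma adjusted p of 0.0562. It was 2.49-fold lower at 18 months (log2 fold change -1.32, -2.22 to -0.41, limma adjusted p 0.318). At 24 months it was 2.39-fold lower (log2 fold change -1.26, -2.16 to -0.35, limma adjusted p 0.256). None of these 3 differences passed the threshold.

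The order of the Alox15 means was 2-month, 18-month (81.31 ± 41.27, SD, n = 5), 24-month (80.67 ± 39.36, SD, n = 5) and 12-month (56.42 ± 37.38, SD, n = 5). The differences among the 3 older ages were within their spread. The 18-month libraries differed from the 12-month libraries by a log2 fold change of 0.47 (-0.43 to 1.38, limma adjusted p 0.803). The 24-month libraries differed from the 12-month libraries by a log2 fold change of 0.53 (-0.37 to 1.43, limma adjusted p 0.601) and from the 18-month libraries by 0.06 (-0.84 to 0.96, limma adjusted p 0.998). The limma F test for any difference among the 4 ages gave an adjusted p of 0.149 for Alox15 and called 0 of the 6 members, against 0.904% of all genes tested. At an unadjusted p under 0.05 it found 2 members, as did limma-voom, which called none. The share of all genes tested at that unadjusted level is not given for the F test, so this count has no background to be read against.

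**Figure D2:**
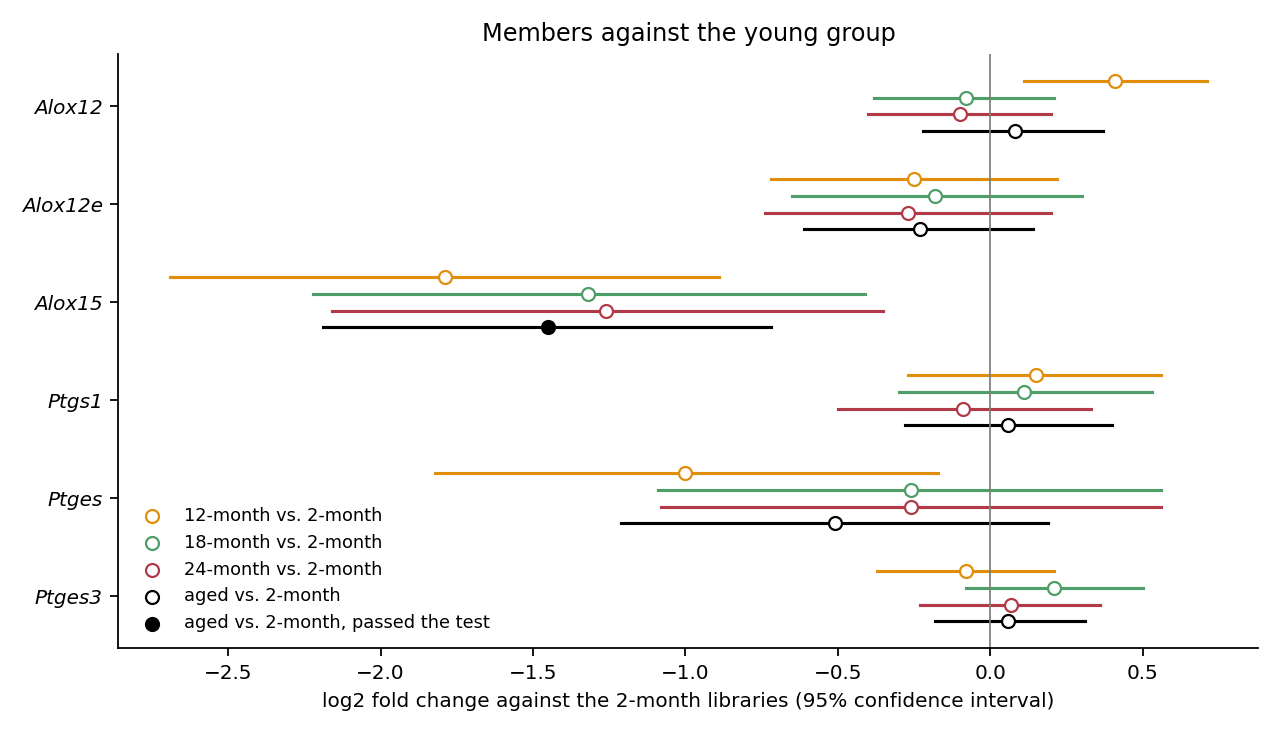
log2 fold change of each tested member against the 2-month libraries (horizontal axis), with its 95% confidence interval from limma, for the 12-month, 18-month, 24-month and aged groups. Filled points passed the test and open points did not; the only filled point is Alox15 in the aged libraries, at -1.45.

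A measure that does not depend on the size factors was added after the values were seen: the reads of Alox15 as a share of the reads of Alox12, Alox12e and Alox15 in the same library. The share was 7.14%, 13.3%, 13.7%, 6.86% and 10.2% in the young libraries. It was 5.60%, 2.78%, 3.68%, 2.99% and 1.91% at 12 months, all 5 below the young range. It was 6.71%, 1.73%, 4.49%, 5.72% and 6.89% at 18 months, and 5.48%, 5.35%, 4.96%, 2.82% and 8.07% at 24 months.

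In the aged libraries the share averaged 4.61% ± 1.91 (SD, n = 15) against 10.2% ± 3.26 (SD, n = 5) in the young ones, and 13 of the 15 aged libraries were below the lowest young library. The log2 ratio of Alox15 to the other 2 lipoxygenases was lower by -1.31 in the aged libraries (two-sided exact permutation test, p = 0.00123 over 15504 splits, unadjusted). Against the young group the two-sided exact permutation p was 0.00794 at 12 months, the smallest that 5 against 5 libraries allow, 0.0159 at 18 months and 0.0238 at 24 months, each unadjusted. The test used the lipoxygenase whose change had already been seen in the same libraries, so it is not independent of the call above. The genes it was divided by also varied with Alox15 over the 20 libraries. Pearson r of log2 values with Alox15 was 0.67 for Alox12e and -0.40 for Alox12. With the mean of each age removed, r was 0.71 and -0.34. The intervals drawn for single libraries are 95% Wilson intervals and cover counting error only.

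**Figure D3:**
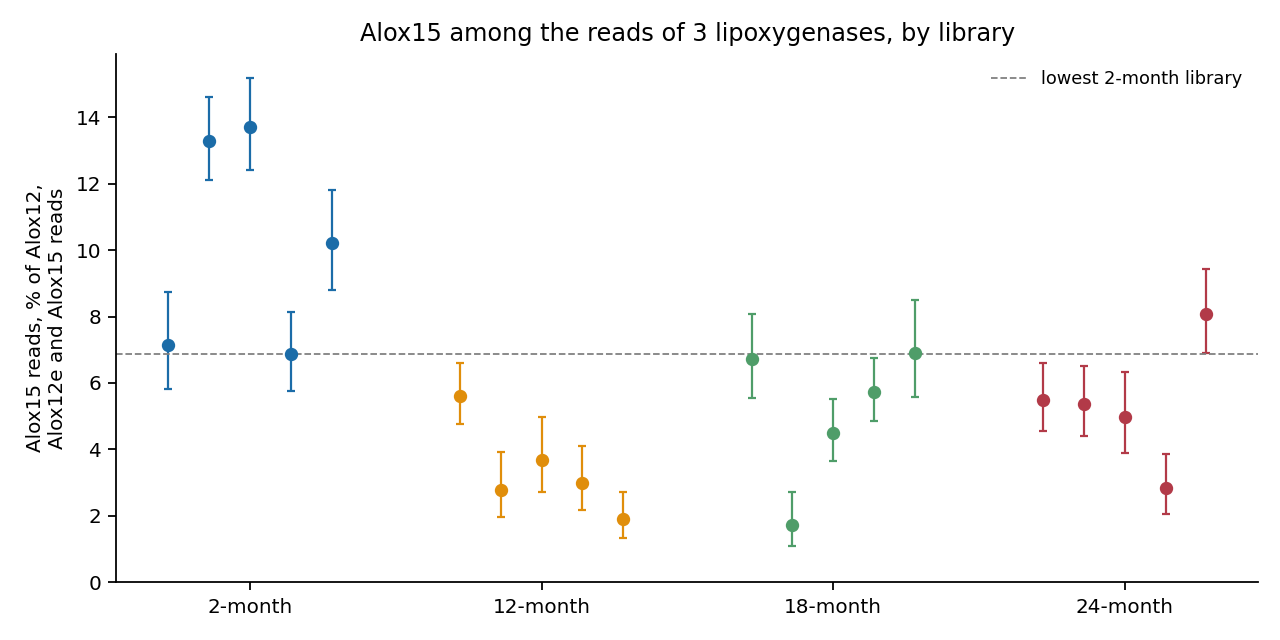
Reads of Alox15 as a percentage of the reads of Alox12, Alox12e and Alox15 (vertical axis) in each library, by age, with 95% Wilson intervals for counting error. The dashed line marks the lowest young library, at 6.86%, and 13 of the 15 aged libraries lie below it.

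Markers of other cell types differed between the same groups. The summed normalized count of 10 stromal keratocyte markers was 1789 to 4919 in the young libraries and 376.5 to 1739 in the aged ones, with no overlap. Of the 10, 6 (Col1a1, Col1a2, Col3a1, Col5a1, Col6a1 and Dcn) were called lower in the aged libraries, against 1.01% of all genes tested. Col5a1 averaged 33.12 at 2 months and 5.380, 5.488 and 2.755 at 12, 18 and 24 months, so it was tested only because the young group was high. Col6a1 was also under 10 at 18 and 24 months (6.910 and 3.573). Kera, Lum, Vim and Ptgds were not called. Kera averaged 30.50 at 2 months, 2.838 at 12, 28.72 at 18 and 9.105 at 24 months. Ptgds, also a prostaglandin D synthase, had no reads in the young libraries. In 12-month replicate 3 it made up 532.5 of a sum of 1277. The sum of 6 lacrimal and accessory gland markers was 439.6 to 10184 in the young libraries and 0 to 105.6 in the aged ones, and 5 of the 6 were called lower. Of these 5, Mup4, Pip, Scgb2b2 and Lcn11 averaged under 10 at every older age and were likewise tested only because the young group was high. Lcn11 averaged 74.08 at 2 months and 0 at each older age. Of 8 conjunctival markers, 5 were tested and Krt4 and Krt19 were called lower, while Tff3 had no reads in any library. Their sum was 28967 to 50549 in the young libraries and 24701 to 40633 in the aged ones, and most of it came from Krt13 (mean 28029 over the 20 libraries).

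Within the young group, replicates 1 to 5 had keratocyte marker sums of 3890, 4919, 4466, 1789 and 3594. Replicates 2 and 3 were highest in both these markers and Alox15, replicate 4 was lowest in the markers and second lowest in Alox15, and replicate 1 was lowest in Alox15 and stood between in the markers. The highest gland marker sum, 10184, was in replicate 4, whose Alox15 was 128.2. In the older ages the highest keratocyte sums were in 12-month replicate 1 (1739), 18-month replicate 2 (1487) and 24-month replicate 5 (1184). Alox15 was highest of its age in the first and last of these, at 123.2 and 134.6. In 18-month replicate 2 it was lowest of all 20 libraries, at 21.11. The median keratocyte sum was 1037 at 12 months and 532.6 at 24 months, where Alox15 averaged 56.42 and 80.67. Of 10 macrophage and other leukocyte markers, 9 were tested and 0 were called by limma or by limma-voom in the aged libraries. By each, 3 of the 9 had an unadjusted p under 0.05, where 7.89% of all genes tested did by limma. Their median log2 fold change was -0.37 in the aged libraries and -0.78 at 24 months. The sums of the 10 were 1308 to 2139 in the young and 927.0 to 1816 in the aged libraries. Most of these sums came from Itgam, with a mean of 1014 over the 20 libraries. The eosinophil markers Siglecf, Prg2, Epx and Ccr3 had no reads in any library. The part that stromal, gland and conjunctival tissue have in the Alox15 difference was not tested.

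The genes whose log2 values followed Alox15 most closely over the 20 libraries were Fstl1 (Pearson r = 0.86, Spearman rho = 0.88), which encodes a secreted follistatin-like glycoprotein, Ccdc80 (r = 0.85, rho = 0.89), which encodes a matrix protein, and Barx2 (r = 0.83, rho = 0.75), which encodes a homeobox transcription factor. With the mean of each age removed, the Pearson r values were 0.86, 0.73 and 0.89. Fstl1 and Ccdc80 were themselves called lower in the aged libraries (limma adjusted p 0.000182 and 0.0409), whereas Barx2 was not (limma adjusted p 0.888). Ccdc80 averaged only 12.48 normalized counts over the 20 libraries, little above the minimum for a test. Its log2 fold change in the aged libraries was -3.17, so its correlation and its call rest on low counts there. The genes that ran most opposite to Alox15 were Clybl (r = -0.83), Agfg2 (r = -0.82) and Bcas3 (r = -0.78). These genes were picked as the extremes among all genes tested and the libraries share 4 age groups, so the coefficients are descriptions and carry no p.

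Alox12, the platelet-type lipoxygenase, was highest at 12 months. Its normalized counts were 389.1, 309.5, 301.4, 355.0 and 289.3 in the young libraries. They were 366.8, 488.0, 373.9, 417.9 and 553.1 at 12 months, 307.3, 314.3, 266.0, 340.4 and 320.1 at 18 months, and 279.9, 343.1, 272.4, 324.6 and 311.5 at 24 months. Every 12-month library was above every 18-month and every 24-month library, and 3 of the 5 were above every young library.

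The means of Alox12 were 439.9 ± 79.54 at 12 months, 328.9 ± 41.86 at 2 months, 309.6 ± 27.34 at 18 months and 306.3 ± 29.85 at 24 months (SD, n = 5 each). The 24-month level was 1.42-fold lower than that at 12 months (log2 fold change -0.51, 95% confidence interval -0.80 to -0.21), and the 18-month level 1.41-fold lower (-0.49, -0.79 to -0.20), but the limma adjusted p-values were 0.124 and 0.567. Against the young group the 12-month log2 fold change was 0.41 (0.11 to 0.71, limma adjusted p 0.296). Among all genes tested, the 2 ages did not overlap for 3.24% at 24 against 12 months and for 1.13% at 18 against 12 months, and 1 of the 6 members, Alox12, was among them in each comparison. At 12 against 2 months 0 of the 6 members were free of overlap, against 1.98% of all genes tested. The young, 18-month and 24-month levels of Alox12 did not differ beyond their spread. Of the platelet, red cell and vessel markers, 1 of 9 was tested, Gp9 and the haemoglobin genes Hbb-bs, Hba-a1 and Hba-a2 had no reads in any library, and the sum was 85.38 to 120.3 at 12 months and 82.44 to 155.1 over the other ages. Most of this sum came from Itga2b, with a mean of 91.51 over the 20 libraries.

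Alox12e, the epidermal-type lipoxygenase next to Alox15, spread widely within each age. It ranged from 850.6 to 1602 in the young libraries, with means of 1292 ± 325.2 at 2 months, 1156 ± 350.1 at 18 months, 1118 ± 423.7 at 12 months and 1069 ± 284.1 at 24 months (SD, n = 5 each). No neighbouring pair of ages differed beyond this spread. In the aged libraries the log2 fold change was -0.23 (95% confidence interval -0.61 to 0.14, limma adjusted p 0.881), so a fall as large as that of Alox15 lies outside the interval.

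Alox12b and Aloxe3 were near the limit of detection. Alox12b, which makes the R-hydroperoxides of barrier lipids, had 1 read in the young group and 1 at 18 months, 8 at 12 months and 27 at 24 months. All 8 reads at 12 months were in replicate 3, and the 24-month libraries had 7, 0, 17, 2 and 1 reads. As RPM, the reads of a gene per 1000000 counted reads of the group, this was 0.0223 in the young and 0.603 in the 24-month group, a ratio of 27.1 with an exact 95% counting interval of 4.46 to 1109. That interval pools the reads of each group and leaves out the spread between animals.

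The mean normalized count of Alox12b was 0.1499 ± 0.3352 at 2 months and 5.118 ± 6.674 at 24 months (SD, n = 5 each), and the two-sided exact permutation p for that difference was 0.0476, not adjusted for the 3 low members. This p rose to 0.206 when any of the young libraries was left out. Most of the reads came from 2 of the 5 animals, and 1 of the 24-month libraries had none. Among 8 markers of eyelid skin and cornified epidermis the sum was 33.98 to 155.3 in the young and 60.54 to 208.9 in the 24-month libraries. In 24-month replicates 1 to 5 the sums were 126.8, 178.9, 60.54, 172.3 and 208.9. Replicate 3, with 17 reads of Alox12b, had the lowest of these, and replicate 5, with 1 read, the highest. The part of skin tissue in the Alox12b reads was not tested.

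Aloxe3, which converts the hydroperoxides made by Alox12b, had 0 reads in all 5 young libraries and in all 5 libraries at 24 months. The young group held 44915083 reads and the 24-month group 44784525, so that a count of 0 allows up to 0.0668 and 0.0670 RPM, for counting error only. At 12 months it had 2 reads in replicate 1 and 12 in replicate 2, and at 18 months 6 in replicate 1 and 3 in replicate 4. Against 3 reads over the young group, the ratio for Aloxe3 was 5.43 at 12 months and 3.13 at 18 months. These ratios leave out the counting error of the older groups, so they are not lower limits. The two-sided exact permutation p was 0.444 for both comparisons, so neither difference exceeded the spread between libraries. The libraries with Aloxe3 reads had the highest sums of the 8 skin and cornified epidermis markers at their age, 134.2 and 285.4 in 12-month replicates 1 and 2 and 151.2 and 304.6 in 18-month replicates 1 and 4. The other libraries had 44.60 to 94.29 at 12 months and 44.57 to 107.2 at 18 months. At 24 months, where Aloxe3 had no reads, the markers Lor, Krtdap, Flg2, Lce1a1, Krt2 and Hrnr had none either, and the sum there came from Krt1 and Krt10. The part of skin tissue in the Aloxe3 reads was not tested. No library with more than 1 read of Alox12b held a read of Aloxe3.

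**Figure D4:**
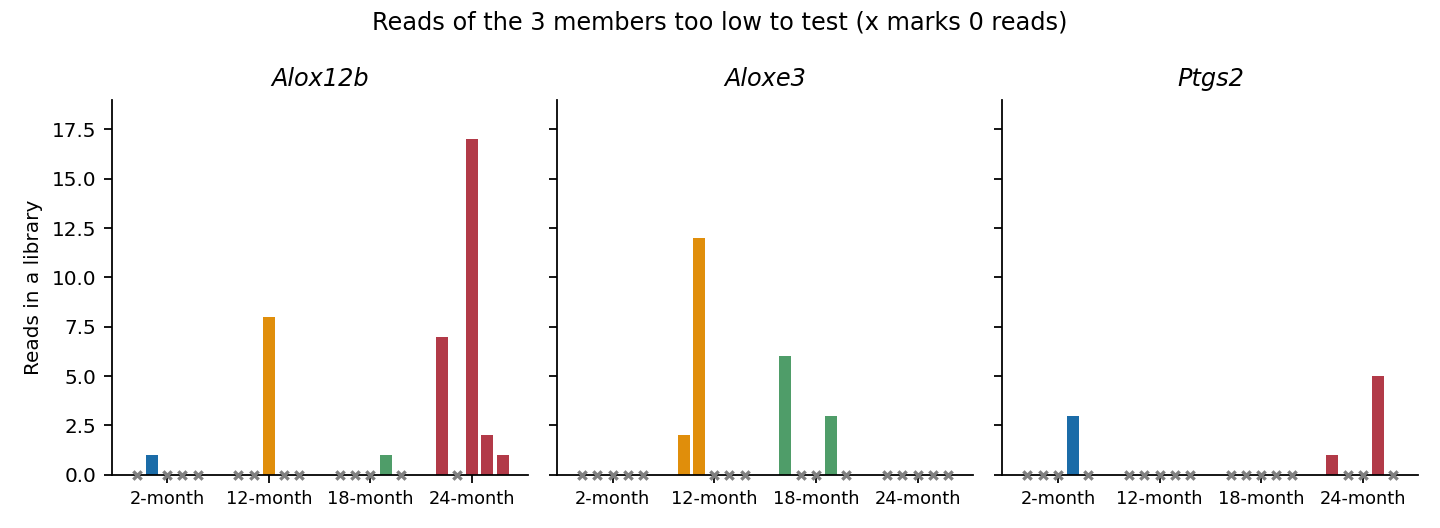
Reads (vertical axis, linear, from 0) of Alox12b, Aloxe3 and Ptgs2 in each library, by age, with a cross for a library at 0. Alox12b reaches 17 reads in 1 library at 24 months, Aloxe3 reaches 12 in 1 library at 12 months, and Ptgs2 stays at or below 5.

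Of the cyclooxygenases, Ptgs1 was tested and Ptgs2 was not. Ptgs1, the constitutive enzyme, was detected in every library, with 196 to 513 reads. Its mean was 320.7 ± 76.08 at 2 months, 347.0 ± 21.92 at 12 months, 356.0 ± 141.6 at 18 months and 299.3 ± 57.26 at 24 months (SD, n = 5 each). The 18-month mean was drawn up by replicate 2, at 601.7, and without that library the 18-month log2 fold change against the young group turned from 0.11 to -0.10. In the aged libraries the log2 fold change was 0.06 (95% confidence interval -0.28 to 0.40, limma adjusted p 0.980).

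Ptgs2 (gene 19225, chr1:150100031-150108227), the inducible cyclooxygenase, had reads in 3 of the 20 libraries. There were 3 reads in young replicate 4, 1 in replicate 1 and 5 in replicate 4 of the 24-month group, and 0 in all 12-month and 18-month libraries. The counts of 0 allow up to 0.0777 RPM at 12 months and 0.0697 at 18 months. The 24-month group stood to the young group in a ratio of 2.01 (exact 95% counting interval 0.428 to 12.4), and the two-sided exact permutation p was 0.722. A change of Ptgs2 with age was not detectable at this depth.

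Ptges, the inducible membrane-bound prostaglandin E synthase, was lowest at 12 months. Its normalized counts averaged 61.57 ± 22.44 at 2 months, 52.75 ± 24.19 at 18 months, 50.24 ± 16.28 at 24 months and 32.85 ± 20.11 at 12 months (SD, n = 5 each), from 10 to 92 reads per library. Of the 12-month libraries, 4 of 5 were below every young library, and the level was 1.99-fold lower (95% confidence interval of the log2 fold change -1.82 to -0.17), with a limma adjusted p of 0.388. The 18-month and 24-month levels did not differ from the young level beyond the spread, with log2 fold changes of -0.26 in both cases.

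Ptges3, the cytosolic synthase that also serves as a co-chaperone of Hsp90, varied little within the 2-month and 24-month groups. It averaged 723.1 ± 33.54 in the young and 756.7 ± 33.93 in the 24-month libraries (SD, n = 5 each), a log2 fold change of 0.07 (95% confidence interval -0.23 to 0.36, limma adjusted p 0.929). Its spread was wider at 12 months (691.1 ± 127.5) and at 18 months (855.9 ± 211.0), where replicate 2 had the highest value of all, 1180. Of its 8 partners, Hsp90 and other co-chaperones, all 8 were tested and 0 were called by limma in any comparison. At an unadjusted p under 0.05 there were 2 (Fkbp4 and Fkbp5, named after their values were seen) in 24-month vs. 12-month, a comparison in which 14.7% of all genes tested were under it. Hsp90ab1, with the highest mean normalized count of this list, had a log2 fold change of -0.09 (-0.32 to 0.15) at 24 months.

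Among the 6 tested members, limma called 0 in 12-month vs. 2-month (0.532% of all genes tested were called), 0 in 18-month vs. 2-month (0.673%) and 0 in 24-month vs. 2-month (0.780%). It also called 0 in 18-month vs. 12-month (0.00886% of all genes tested), 0 in 24-month vs. 12-month (0.195%) and 0 in 24-month vs. 18-month (0%). At an unadjusted p under 0.05 these 6 comparisons had 3, 1, 1, 2, 1 and 0 members, and the shares of all genes tested at that level were 9.56%, 7.18%, 9.97%, 7.43%, 14.7% and 5.31%. By limma-voom on the recovered reads 0 were called in each, with 3, 1, 1, 1, 1 and 0 at an unadjusted p under 0.05. The median log2 fold change of the 6 members in the aged libraries was -0.09, and that of all genes tested was -0.01.

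The other genes of the pathway numbered 73 in the table, of which 38 were tested. Only 1 of them was called in any comparison: Ephx2, the soluble epoxide hydrolase that opens epoxides of fatty acids, which was 1.62-fold lower at 24 months than at 2 months. Its normalized counts were 270.8, 320.0, 307.8, 328.5 and 384.2 in the young libraries, and 174.5, 193.5, 178.8, 231.5 and 211.8 in the 24-month libraries, with no overlap. Among all genes tested, 2.81% did not overlap in that comparison and 0.780% were called, beside 1 of these 38. The means of Ephx2 were 322.2 ± 41.05 at 2 months, 279.0 ± 22.78 at 12 months, 233.0 ± 61.65 at 18 months and 198.0 ± 23.71 at 24 months (SD, n = 5 each).

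The log2 fold change of Ephx2 at 24 months was -0.70 (SE 0.173, 95% confidence interval -1.05 to -0.34), with a limma adjusted p of 0.0485. The call lay at the threshold: limma-voom gave an adjusted p of 0.0848, and dropping a single library removed it in 15 of 20 cases, with log2 fold changes from -0.76 to -0.63. Ephx2 at 24 months was also below every 12-month library (log2 fold change -0.50, limma adjusted p 0.191), a comparison in which 3.24% of all genes tested did not overlap. The 6 other tested genes of eicosanoid breakdown and transport were not called, and Ptgr1, a prostaglandin reductase and the highest of them in normalized counts, had a log2 fold change of -0.01 (-0.20 to 0.19).

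**Figure D5:**
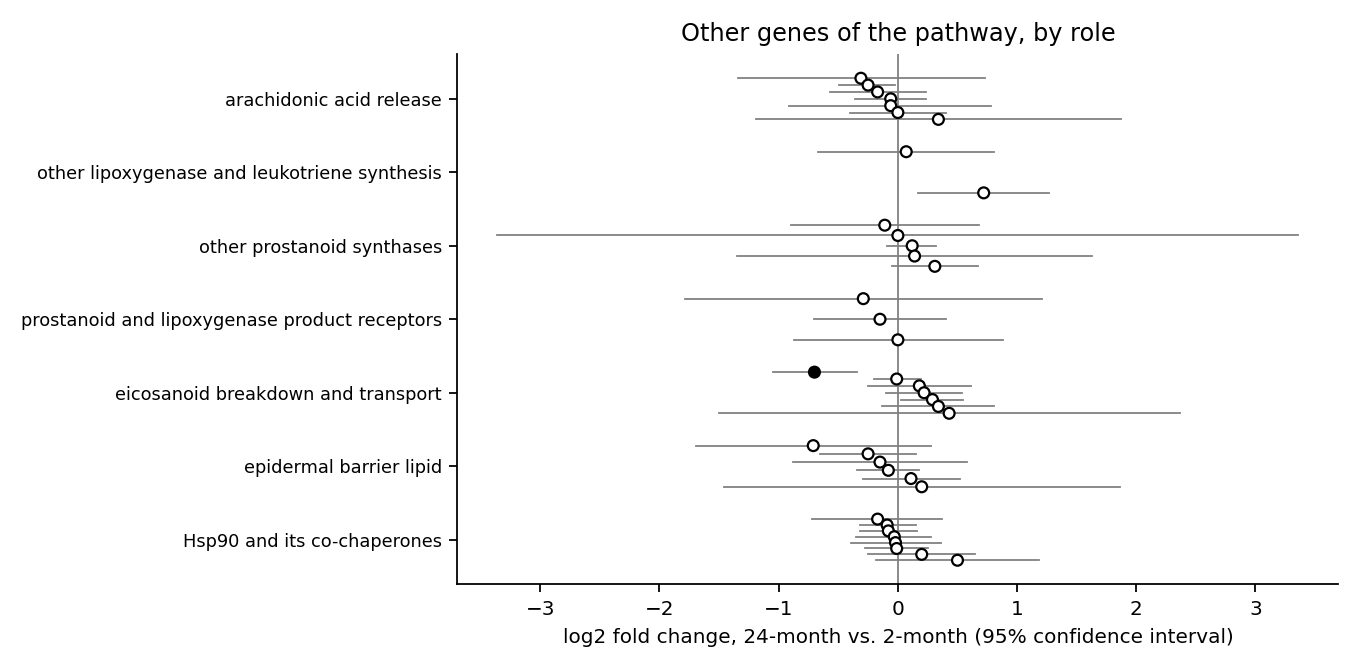
log2 fold change in 24-month vs. 2-month libraries (horizontal axis), with 95% confidence intervals from limma, of the 38 tested genes of the pathway that are no members, grouped by role. The filled point is Ephx2, at -0.70, and open points did not pass the test.

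Of 17 genes for the release of arachidonic acid, 7 were tested, 0 were called by limma in any comparison and 3 had no reads in any library. The phospholipase Pla2g16 had the highest mean of them, 1587 in the young and 1319 in the 24-month libraries (log2 fold change -0.25, 95% confidence interval -0.49 to -0.02). Its 24-month libraries were all below its 12-month libraries (limma adjusted p 0.231), where 3.24% of all genes tested did not overlap. Of 6 genes for other lipoxygenase and leukotriene steps, Lta4h, the leukotriene A hydrolase, and Gpx4, a lipid hydroperoxide reductase, were tested and not called. Lta4h had a log2 fold change of 0.07 (-0.67 to 0.81) at 24 months. Gpx4 had one of 0.65 (0.21 to 1.09) in the aged libraries, with a limma adjusted p of 0.208, and 7 of the 15 aged libraries were above every young library.

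Of 8 other prostanoid synthases, 5 were tested and 0 called by limma. Hpgds, the haematopoietic prostaglandin D synthase, was likewise highest at 12 months, with means of 1211 ± 111.9 at 2 months, 1514 ± 123.0 at 12 months, 1172 ± 93.70 at 18 months and 1310 ± 40.99 at 24 months (SD, n = 5 each). Its 12-month libraries were all above its 18-month and 24-month libraries, with log2 fold changes of -0.37 and -0.20 and limma adjusted p-values of 0.567 and 0.337 for the later ages against 12 months. Among all genes tested, 1.13% and 3.24% did not overlap in these comparisons.

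Of 15 receptors for prostanoids and lipoxygenase products, 3 were tested, 0 were called by limma and 4 had no reads in any library. Ltb4r2, a leukotriene B receptor and the highest of them in normalized counts, had a log2 fold change of -0.15 (95% confidence interval -0.70 to 0.40) at 24 months. Of 11 partners of Alox12b and Aloxe3 in the barrier lipid pathway, 6 were tested and 0 were called by limma. The highest in normalized counts was Abhd5, a lipase cofactor, with a log2 fold change of -0.08 (-0.34 to 0.18) at 24 months. Across these lists the counts of unadjusted p under 0.05 were 5 of 38 in the aged libraries and 4 of 38 at 24 months, beside 7.89% and 9.97% of all genes tested, and the medians of the 38 log2 fold changes were 0.01 and -0.01. limma-voom called 0 of the 38 in each of the 7 comparisons, with 6 at an unadjusted p under 0.05 in the aged libraries and 3 at 24 months.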

How the data were processed

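Oligo-dT primed, 3′-end single-read libraries were sequenced by the authors, who trimmed reads with cutadapt, checked them with FastQC, aligned them to GRCm38/mm10 with STAR, counted them with HTSeq and scaled them with DESeq2 size factors. Versions are not given in the sources used here. The other deposited tables hold the same values. Each value as deposited is on a log2 scale, of a normalized count with 1 added, and whole reads were recovered from them for 100.00% of values. The authors' fold changes, p-values and means in the same tables were not used.

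The main test was limma 3.58.1 (R 4.3.3), lmFit and eBayes with a mean-variance trend, on the deposited log2 values of the 11288 genes that averaged 10 or more normalized counts. The 4 ages entered 1 fit, and the aged comparison a fit of 2 groups, with Benjamini-Hochberg adjustment over all genes tested. Members under the minimum got a two-sided exact permutation test, mainly 24-month vs. 2-month. The same test for the other comparisons was added after the values were seen. A minimum of 10 corresponds to 7.60 to 13.3 reads, depending on the library. Exact tests and intervals were run with scipy 1.17.1, and the fits were tested on simulated data. Each library is 1 animal, so p-values measure the spread between animals, with any technical spread included. In 40 pairs of libraries from the same age, counts differed with a chi-square of 11.3 to 107 per degree of freedom, so none was a second sequencing of the other. A second preparation from the same animal could not be recognized in this way. Alternatives comprised limma-voom, quantile normalization, other filters, pseudocounts and fold thresholds, the replicate block, and leaving out libraries.

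The named genes were the members, the pathway genes called or highest in their role group, the 3 genes most and least like a called member, and markers set beside a result. Fkbp4, Fkbp5, Gpx4 and Ptgds were named after their values were seen. The members and all lists were chosen with earlier results of these data known.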

Additional observations from a re-analysis of the deposited data

Results flagged for a closer look

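Within an age, 8 values of the members stood apart from the other 4 libraries by Dixon's ratio at the 95% level, of 32 sets of 5 libraries examined, and chance sets apart about 1 in 20. Alox15 in 12-month replicate 1 was 123.2 normalized counts (134 reads), and Ptgs1 in 18-month replicate 2 was 601.7 (513 reads). The other 6 belonged to the members too low to test. Alox12b stood apart in 2-month replicate 2 (0.7494 normalized counts, 1 read), 12-month replicate 3 (8.571, 8 reads) and 18-month replicate 4 (0.8959, 1 read). Aloxe3 stood apart in 12-month replicate 2 (15.78, 12 reads), and Ptgs2 in 2-month replicate 4 (3.179, 3 reads) and 24-month replicate 4 (4.351, 5 reads). Where the other 4 libraries are at 0, a single read is enough to set a library apart.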

How the results depend on the processing

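Of 256 recomputed counts of called members, 229 were unchanged. The aged call of Alox15 fell from 1 member to 0 without a filter (limma adjusted p 0.0697), with a pseudocount of 0.1 (0.0524), and with 2-month library 4 and 18-month library 2 left out together, an alternative added after the values were seen (0.0524); it held under limma-voom (0.0163), quantile normalization (0.0278), a minimum mean of 50 (0.0419) and a pseudocount of 10 (0.0237), and its log2 fold change stayed between -1.47 and -1.32 in these settings. Leaving out 1 library gave 0 to 1 members in the aged comparison, with log2 fold changes of Alox15 from -1.67 to -1.26 and adjusted p from 0.0208 to 0.191; the call was lost without 2-month replicates 2 (0.191), 3 (0.181), 4 (0.0594) or 5 (0.0865), and at 0.051 to 0.0579 without 12-month replicates 2, 3 or 4, 18-month replicate 3, or 24-month replicates 2, 3 or 4. In 12-month vs. 2-month the count rose from 0 to 1, Alox15, with a pseudocount of 10 (adjusted p 0.0379) and without both libraries (0.0288), and was 0 to 1 when 1 library was left out (1 without 2-month replicate 1, 12-month replicate 1, 18-month replicate 2 or 24-month replicate 4). The F test also gave 0 to 1, with Alox15 called without 12-month replicate 1. The other 5 comparisons gave 0 to 0. The exact test of the low members gave 0 to 1 (Alox12b) when 1 library was left out, 0 without any of the 2-month libraries. Ptgs1 changed sign without both libraries, to -0.24 at 18 months and -0.15 in the aged libraries, and leaving out 1 library gave -0.10 to 0.23 at 18 months, -0.23 to 0.02 at 24 months and -0.09 to 0.16 in the aged libraries. Ptgs2, at 24 minus 2 months, gave -0.392 to 1.07 normalized counts. The cause of these changes was not tested.

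With the replicate number as a block, the aged count was 0 in place of 1, with an adjusted p of 0.0597 for Alox15, and 0 in each of the other 7 tests. The numbers do not pair the libraries: over 30 pairs with the same number the correlation of deviations from the age means ran from -0.30 to 0.16, and 3 of 20 libraries correlated best with their own number. The alternatives for Ephx2 were added after its values were seen. Its call at 24 months was lost with only the 2 groups in the fit (adjusted p 0.0565), with a pseudocount of 0.1 (0.0527), under limma-voom (0.0848) and without both libraries named above (0.0879), and of the fits without 1 library it held only without 2-month replicate 1 or 18-month replicates 1, 2, 3 or 5. Over all alternatives the number of all genes called ran from 38 to 96 in 12-month vs. 2-month (60 in the fit reported), 54 to 100 in 24-month vs. 2-month (88), 0 to 3 in 18-month vs. 12-month (1), 0 to 84 in 24-month vs. 12-month (22) and 59 to 120 by the F test (102).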
